A study of Mus musculus with 12 samples.

Results

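Immediate early genes are the first genes that neurons transcribe after a burst of synaptic activity, and their transcripts decay soon afterwards. Their promoters are held ready for transcription factors that calcium, cAMP and ERK signaling activate, so no new protein has to be made for the first wave of transcripts. In the striatum they are widely read as markers of recent drive by glutamate and dopamine. The genes described here are 10 members of this class, found by symbol in the count table: the AP-1 factors Fos, Fosb and Junb, the zinc-finger factors Egr1, Egr2 and Egr4, the neuron-specific factor Npas4, the orphan nuclear receptor Nr4a1, the synaptic effector Arc, and Ier2. All 10 had a row among the 57132 features of the table. Of these, 8 were among the 13902 features that reached the filter of 0.5 in at least 3 libraries on the scale of CPM, the count of a feature relative to the total of its library, and Egr2 and Ier2 were not.

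The libraries were made from striatal RNA of C57Bl/6 mice aged 10 months. Of these, 6 are labelled TAAR5-KO, animals deficient in the trace amine receptor TAAR5, and 6 are labelled WT, their wild-type littermates. Each group held males and females according to the study's methods, but no library could be tied to a sex or an animal. The tissue was what remained of a coronal slice once the cortex had been cut away, after killing by cervical dislocation, and the sources used here name no stimulus before killing. Libraries are called by the numbers of the count table, NK1 to NK6 for the label TAAR5-KO and NK7 to NK12 for the label WT.

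The targeted gene was checked first. Taar5 received 1 to 6 reads in the libraries labelled TAAR5-KO and 0 to 2 in those labelled WT, which goes against the direction of the labels, so genotypes are given as labels throughout. The deleted part of the gene is not given in the sources used here, so these reads may lie outside it and do not settle the genotype of any library. The libraries held 11269915 to 34824450 counts in total, but ribosomal RNA took 64.3% to 88.1% of them and left 1819907 to 6399188 other counts. All 10 striatal spiny neuron markers passed the filter, with a summed level of 199 to 376 CPM in the libraries labelled WT and 337 to 438 CPM in those labelled TAAR5-KO. The 10 cortical pyramidal neuron markers were present as well, at a summed 61.2 to 155 CPM and 58.6 to 142 CPM, respectively, with no marker at 0 in every library.

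Promoters of the members are shown because the members varied together across libraries. Whether any motif has a part in this covariation was not tested. The window searched ran from 250 bases before to 49 after the start of the canonical transcript (GENCODE M39 on GRCm39, both strands, with the start as base 0). The letters TGACG, which are one arm of the cAMP response element bound by CREB, were found in 8 of 10 member windows (80%) and in 22.6% of 21770 promoters of protein-coding genes. Arc and Npas4 had no such match in this window. The whole element TGACGTCA was found only in Ier2 among the members (2.44% of all promoters). A CArG box, the core of the serum response element, was found only in Egr2 (1.54%). Sequence outside this window was not searched, so a member without a match here may carry one elsewhere. The EGR site GCGNGGGCG was found in Fosb, Arc and Nr4a1 (6.21% of all promoters), and TATAAA in Fos, Junb and Nr4a1 (13.2%). No member window held the AP-1 site TGANTCA (7.14%) or the NR4A site AAAGGTCA (1.36%). The lines that follow give the 250 bases before the start, written along the strand of the gene, for 3 of the 4 members with the tightest mutual correlation (Fos, Arc and Nr4a1, without Egr1), the loosest member (Fosb), and the only carriers of the CArG box (Egr2) and of the whole cAMP response element (Ier2). Capitals mark whole matches to TGACG, TGACGTCA, the EGR site, TATAAA or the CArG box on either strand; of the 4 matches to TGACG in Nr4a1, 2 lie in the printed stretch.
Fos (chr12:85520408-85520657, plus strand): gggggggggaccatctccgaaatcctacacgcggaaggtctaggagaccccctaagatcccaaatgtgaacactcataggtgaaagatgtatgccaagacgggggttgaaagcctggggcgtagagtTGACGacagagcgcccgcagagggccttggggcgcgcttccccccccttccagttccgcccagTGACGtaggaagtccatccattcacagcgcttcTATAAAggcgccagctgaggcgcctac
Fosb (chr7:19043977-19044226, minus strand): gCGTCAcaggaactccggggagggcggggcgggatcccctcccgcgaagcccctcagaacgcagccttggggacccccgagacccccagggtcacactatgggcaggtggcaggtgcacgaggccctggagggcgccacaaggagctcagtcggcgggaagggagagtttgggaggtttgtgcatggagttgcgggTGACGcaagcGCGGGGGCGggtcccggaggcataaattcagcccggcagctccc
Egr2 (chr10:67373442-67373691, plus strand): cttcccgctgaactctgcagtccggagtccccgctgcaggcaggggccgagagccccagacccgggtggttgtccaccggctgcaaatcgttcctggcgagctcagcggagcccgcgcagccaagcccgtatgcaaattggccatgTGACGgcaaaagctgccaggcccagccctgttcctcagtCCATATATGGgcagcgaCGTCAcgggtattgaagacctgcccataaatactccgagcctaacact
Arc (chr15:74544420-74544669, minus strand): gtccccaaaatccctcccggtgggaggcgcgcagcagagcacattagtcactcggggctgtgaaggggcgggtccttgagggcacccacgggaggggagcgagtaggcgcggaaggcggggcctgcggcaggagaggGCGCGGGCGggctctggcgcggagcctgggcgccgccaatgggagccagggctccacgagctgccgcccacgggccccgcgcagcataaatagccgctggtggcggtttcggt
Nr4a1 (chr15:101164410-101164659, plus strand): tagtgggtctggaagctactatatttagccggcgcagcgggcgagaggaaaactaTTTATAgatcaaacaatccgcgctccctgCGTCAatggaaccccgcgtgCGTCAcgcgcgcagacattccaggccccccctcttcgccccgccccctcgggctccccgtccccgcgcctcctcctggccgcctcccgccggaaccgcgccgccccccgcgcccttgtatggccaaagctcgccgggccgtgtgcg
Ier2 (chr8:85389484-85389733, minus strand): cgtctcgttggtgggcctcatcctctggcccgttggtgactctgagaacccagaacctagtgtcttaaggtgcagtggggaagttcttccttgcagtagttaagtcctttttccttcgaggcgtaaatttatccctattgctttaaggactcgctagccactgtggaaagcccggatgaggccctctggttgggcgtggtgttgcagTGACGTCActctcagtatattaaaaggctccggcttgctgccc

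The members were expressed over a wide range of levels. Per kilobase of merged exons, Egr1 had the highest level at 3.14 ± 1.33 CPM per kb (SD, n = 12 libraries), and Arc followed at 1.65 ± 0.895 CPM per kb. Junb (0.695 ± 0.267) and Nr4a1 (0.616 ± 0.333) came next on the same scale. Egr4, Npas4, Fos and Fosb lay between 0.340 and 0.204 CPM per kb, and Ier2 (0.125) and Egr2 (0.109) had the lowest levels. Neighbors in this order were compared within libraries by an exact two-sided sign-flip permutation test over 12 pairs, with adjustment over the 9 comparisons. Egr1 exceeded Arc and Arc exceeded Junb in 12 of 12 libraries (adjusted p = 0.0022, exact permutation test). Nr4a1 exceeded Egr4 in 11 of 12 libraries (adjusted p = 0.0059, exact permutation test) and Fosb exceeded Ier2 in 10 of 12 (adjusted p = 0.022, exact permutation test). In the other 5 neighboring pairs the difference was within the spread between libraries. In bulk tissue, fewer cells that transcribe a gene and less RNA in each cell cannot be told apart.

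With the genotype label as the only term, no member was called. The likelihood ratio test of edgeR called 0 of the 8 tested members at an adjusted p under 0.1, and it called 1.65% of all features (0.957% higher and 0.691% lower under the TAAR5-KO label). The quasi-likelihood test of edgeR also called 0 of 8 (0.453% of all features), and DESeq2 called 0 but gave an adjusted p for only 1 of the 10 members. Its share was 0.46% of the 43663 features with a p. These include features left without an adjusted p, so this share is not on the same footing as those of edgeR. At an unadjusted p under 0.05, Junb, Npas4 and Nr4a1 passed the likelihood ratio test, or 3 of 8 members beside 11.9% of all features. The median difference of the 8 members was 0.53 on the log2 scale (TAAR5-KO label minus WT label), with 6 above 0 and 2 below. The median of all features tested was -0.0061. Most members varied together across libraries, so counts of members here and below are not counts of independent results. The groups overlapped in all 10 members. Among all features tested, 1.01% had groups that did not overlap. Levels and differences are on the scale of TMM, a normalization that assumes most genes do not differ between libraries, whereas the filter used unscaled totals. Scaled by library size without TMM factors, the median of all features tested moved to -0.49, and Fos (-0.048), Arc (-0.13) and Egr1 (-0.54) took values below 0, of which Fos and Arc stayed above that median.

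**Figure D1:**
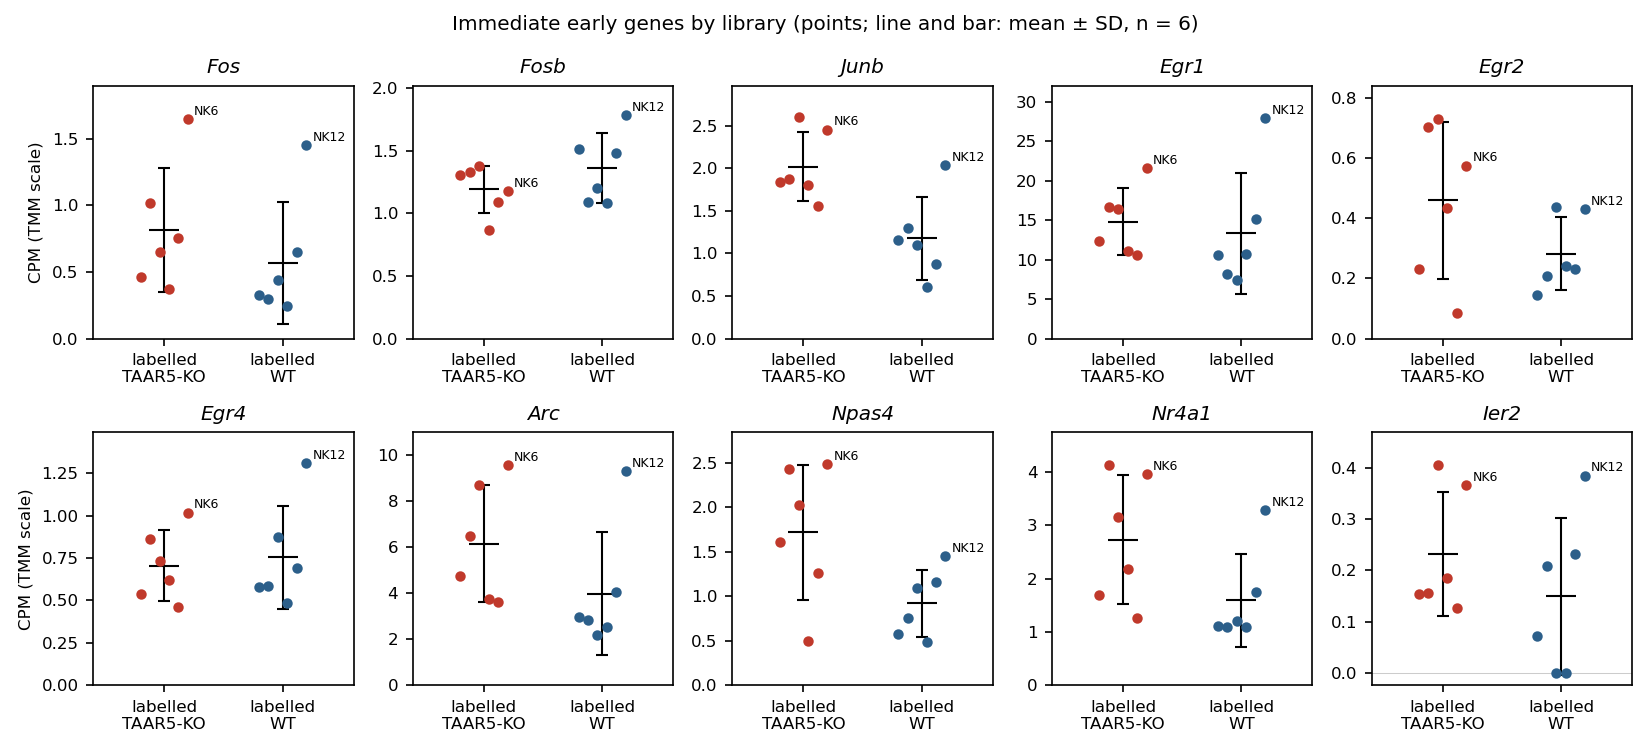
CPM on the TMM scale (y axis) of each of the 10 immediate early genes in the 6 libraries labelled TAAR5-KO (red) and the 6 labelled WT (blue), with the mean and SD of each group as a line and bar. NK12 lies above the other libraries labelled WT for Fos, Arc and Nr4a1, at 1.45, 9.30 and 3.28 CPM, and the groups overlap in every panel.

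Fos and Junb had label differences above 0 and Fosb one below 0, none of them called, and the differences among these AP-1 factors were not tested. Fos, which pairs with Jun proteins and is the classic marker of neuronal activation, ranged from 0.372 to 1.65 CPM (median 0.703) in the libraries labelled TAAR5-KO. In the libraries labelled WT it ranged from 0.241 to 1.45 CPM (median 0.381). NK6 and NK12 held the highest value of their own group, and no other library labelled WT exceeded 0.647 CPM. The log2 fold change of Fos was 0.47 ± 0.45 (SE), with a 95% interval from -0.41 to 1.34 (edgeR adjusted p = 0.731), on 2 to 64 counts per library. Fosb, whose truncated product DeltaFosB is known to build up in the striatum under repeated stimulation, ranged from 0.868 to 1.38 CPM (median 1.24) under the TAAR5-KO label and from 1.09 to 1.79 CPM (median 1.34) under the WT label. These gene counts do not separate the FosB and DeltaFosB transcripts. The log2 fold change of Fosb was -0.29 ± 0.20 with an interval from -0.68 to 0.099 (edgeR adjusted p = 0.588), and it had the smallest spread of the members, 2.06-fold between its lowest and highest library.

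Junb, an AP-1 partner with lower activating capacity than Jun, ranged from 1.55 to 2.60 CPM (median 1.86) under the TAAR5-KO label and from 0.603 to 2.04 CPM (median 1.12) under the WT label. All 6 libraries labelled TAAR5-KO lay above the WT median, and a single library labelled WT, NK12, lay inside their range. The means were 2.02 ± 0.410 and 1.18 ± 0.486 CPM (SD, n = 6 each), and the log2 fold change was 0.67 ± 0.24 with an interval from 0.20 to 1.14 (edgeR adjusted p = 0.153). Without NK12 the value was 0.94 and Junb was called (edgeR adjusted p = 0.0102). The lowest value with 1 library left out was 0.58, without NK11 (edgeR adjusted p = 0.366). Junb (chr8:85701113-85705347, minus strand of GRCm39) shares 173 exonic bases with Prdx2, a peroxiredoxin gene on the opposite strand. The counting is not stated to use strand, so reads in that overlap cannot be assigned and the value is uncertain to that extent.

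Of the EGR family, Egr1 (also known as Zif268) was by far the most counted member, with 68 to 1237 counts per library. It ranged from 10.6 to 21.6 CPM (median 14.4) under the TAAR5-KO label and from 7.45 to 28.0 CPM (median 10.7) under the WT label. The highest value of all, in NK12, was a WT label, and NK6 was second. The log2 fold change of Egr1 was 0.14 ± 0.26 with an interval from -0.38 to 0.66 (edgeR adjusted p = 0.897), and without NK6 it was -0.0034. Egr4 ranged from 0.462 to 1.02 CPM (median 0.675) and from 0.482 to 1.31 CPM (median 0.639), again with NK6 and NK12 as the highest of their groups. Its log2 fold change was -0.14 ± 0.31 with an interval from -0.75 to 0.47 (edgeR adjusted p = 0.914), and it was 0.20 without NK12. GENCODE M39 has an RNA, Gm67895, that shares 889 bases with the M39 transcript of Egr4 and has no row in the count table. The M39 gene (chr6:85485678-85490675) is longer than the counted one (chr6:85488103-85490571), and the place of these bases was not determined. The strand setting is not stated either, so it is not known whether reads of Gm67895 entered the counts of Egr4. Egr2, which is best known for its role in Schwann cell myelination and hindbrain patterning, had only 2 to 22 counts and ranged from 0.0840 to 0.730 CPM (median 0.504) and from 0.144 to 0.438 CPM (median 0.236). Fitted after removal of ribosomal RNA features, which let it past the filter, its log2 fold change was 0.65 (edgeR adjusted p = 0.627).

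Npas4, a bHLH-PAS factor that calcium entry induces selectively in neurons, had the largest difference of the tested members. It ranged from 0.496 to 2.48 CPM (median 1.82) under the TAAR5-KO label and from 0.482 to 1.45 CPM (median 0.924) under the WT label. The 5 libraries NK1, NK2, NK3, NK5 and NK6 lay at 1.26 CPM or more, whereas NK4 lay at 0.496 CPM, close to the lowest WT label. The log2 fold change of Npas4 was 0.86 ± 0.33 with an interval from 0.21 to 1.5 (edgeR adjusted p = 0.210). Without NK4 it was 1.03 and was called (edgeR adjusted p = 0.0196). Its lowest value with 1 library left out was 0.70, without NK6 (edgeR adjusted p = 0.400). Nr4a1 (Nur77), an orphan nuclear receptor that dopamine signaling is known to regulate in spiny neurons, ranged from 1.26 to 4.14 CPM (median 2.67) and from 1.09 to 3.28 CPM (median 1.16). All 6 libraries labelled TAAR5-KO were above the WT median, and 5 of 6 libraries labelled WT lay between 1.09 and 1.76 CPM. The log2 fold change of Nr4a1 was 0.73 ± 0.33 with an interval from 0.088 to 1.37 (edgeR adjusted p = 0.325). Without NK12 it was 1.11 and was called (edgeR adjusted p = 0.0436). Its lowest value with 1 library left out was 0.58, without NK6 (edgeR adjusted p = 0.524).

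Arc, which encodes a capsid-like protein that drives the internalization of AMPA receptors, ranged from 3.61 to 9.56 CPM (median 5.62) under the TAAR5-KO label and from 2.19 to 9.30 CPM (median 2.90) under the WT label. NK12 again stood apart, because the other 5 libraries labelled WT reached 4.02 CPM at most. The log2 fold change of Arc was 0.60 ± 0.32 with an interval from -0.035 to 1.23 (edgeR adjusted p = 0.457). Without NK12 it was 1.05 and was called (edgeR adjusted p = 0.0157). Its lowest value with 1 library left out was 0.42, without NK6 (edgeR adjusted p = 0.668). Ier2, a short-lived nuclear protein, had 0 to 17 counts, with a median of 0.171 CPM under the TAAR5-KO label and 0.141 CPM under the WT label. Its count of 0 in NK9 and in NK10 allows up to 0.329 and 0.362 CPM (3 counts, counting error only), so a difference of Ier2 was not detectable at this depth.

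Leaving out NK12 thus let 3 members past the threshold, Junb, Arc and Nr4a1, where 1.0% of all features were called. Leaving out NK4 let 1 member past, Npas4, where 3.0% of all features were called, and leaving out each of the other 10 libraries let none past. NK6 and NK12 together were also left out, an alternative chosen after the data were seen. Of the 8 members, 2 were then called higher under the TAAR5-KO label, Junb and Arc, where 0.773% of all features were called. Both are the libraries with the most counts outside ribosomal RNA, 5513056 in NK6 and 6399188 in NK12.

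Variation between libraries was shared by most members. All 45 pairs of members had a positive Pearson's r of log2 CPM over the 12 libraries, with a median of 0.645 and a range from 0.0933 to 0.919. Of these, 24 passed an adjusted p under 0.05 (100000 permutations, two-sided, adjusted over 45 pairs), and 22 passed with Spearman's rho. Of all pairs of features tested, 2.51% had an r as high as the median of the member pairs, and their own median was -0.0012. The first principal component of the standardized members held 67.1% of their variance. The relation was present under each label, with a median r of 0.717 among the libraries labelled TAAR5-KO and 0.700 among those labelled WT, and 45 of 45 pairs were positive under each. After the mean of each label was subtracted, 24 pairs passed and the median r was 0.689. The members share their libraries and scaling factors, so the 45 pairs are not independent of each other.

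**Figure D2:**
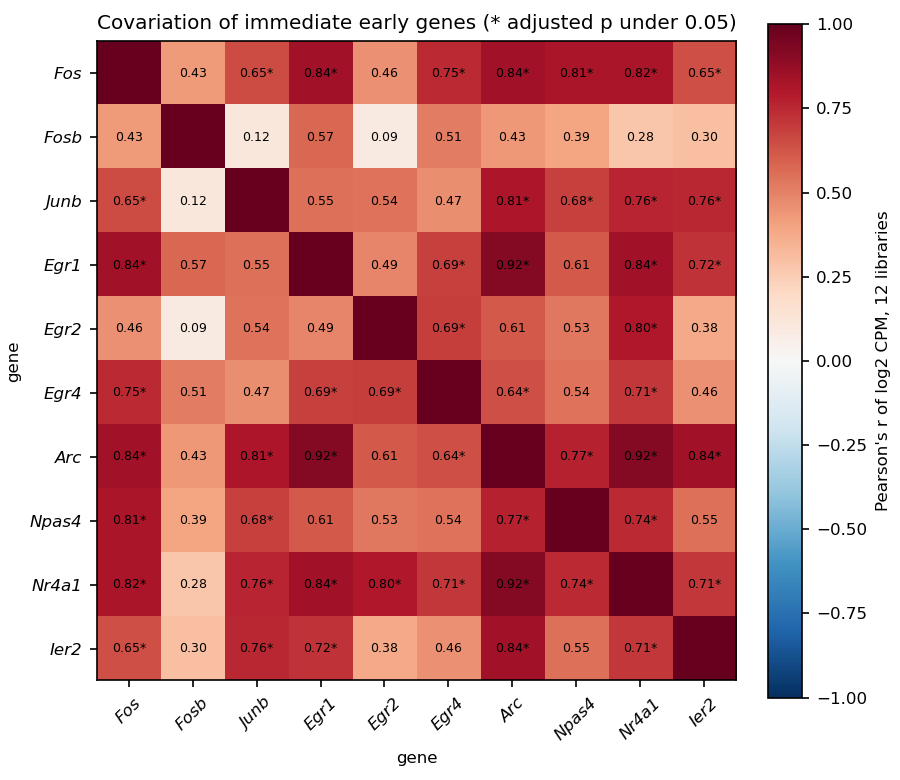
Pearson's r of log2 CPM over 12 libraries for every pair of the 10 immediate early genes (both axes), with color from -1 to 1 and an asterisk for an adjusted permutation p under 0.05. Egr1 with Arc and Arc with Nr4a1 have the highest r, 0.92 each, and the row of Fosb carries no asterisk.

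Fos, Egr1, Arc and Nr4a1 formed the tightest group. Their 6 mutual correlations lay between 0.816 and 0.919. Egr1 and Arc gave r = 0.919 and rho = 0.930 (permutation adjusted p = 0.00045 and 0.0018), and r was 0.871 without NK6 and NK12, the 2 libraries farthest from the median of Egr1. Arc and Nr4a1 gave r = 0.919 and rho = 0.888 (permutation adjusted p = 0.0011 and 0.0040), and r was 0.883 without the same pair. Nr4a1 passed with 8 of the 9 other members, Fos and Arc with 7 each, and Junb, Egr1, Egr4 and Ier2 with 5 each. Npas4 passed with Fos, Junb, Arc and Nr4a1, and its highest r was 0.813, with Fos. Egr2 passed with Egr4 and Nr4a1.

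Fosb was the loosest member. Its 9 correlations ranged from 0.0933 with Egr2 to 0.572 with Egr1, and none passed. Fosb and Junb, products of which can dimerize, gave r = 0.116 and rho = 0.238 (permutation adjusted p = 0.738 and 0.466). After the label means were subtracted, however, Fosb passed with Egr1 (r = 0.718, permutation adjusted p = 0.0303), Arc (r = 0.742, permutation adjusted p = 0.0217) and Npas4 (r = 0.719, permutation adjusted p = 0.0299). Fosb and Egr4 were the only tested members whose label difference was below 0.

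How many pairs passed depended on a few libraries. NK6 and NK12 held the highest value for 3 members each and were among the highest 2 libraries for 7 and 6 members. NK3 held the highest value for 3 members and NK2 for 1, and NK10 was among the lowest 2 libraries for 8 members. Without the 2 libraries farthest from the median of the first member of each pair, the median r was 0.578 and 45 of 45 pairs stayed above 0. Without NK6 and NK12 in every pair, 3 pairs passed and the median r was 0.483. Leaving out 1 library gave 11 pairs without NK6, 14 without NK10 and 15 without NK12, against 20 to 25 without any other. Scaled by library size alone, 45 of 45 pairs passed, but in that scaling the ribosomal RNA left in a library enters every value.

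**Figure D3:**
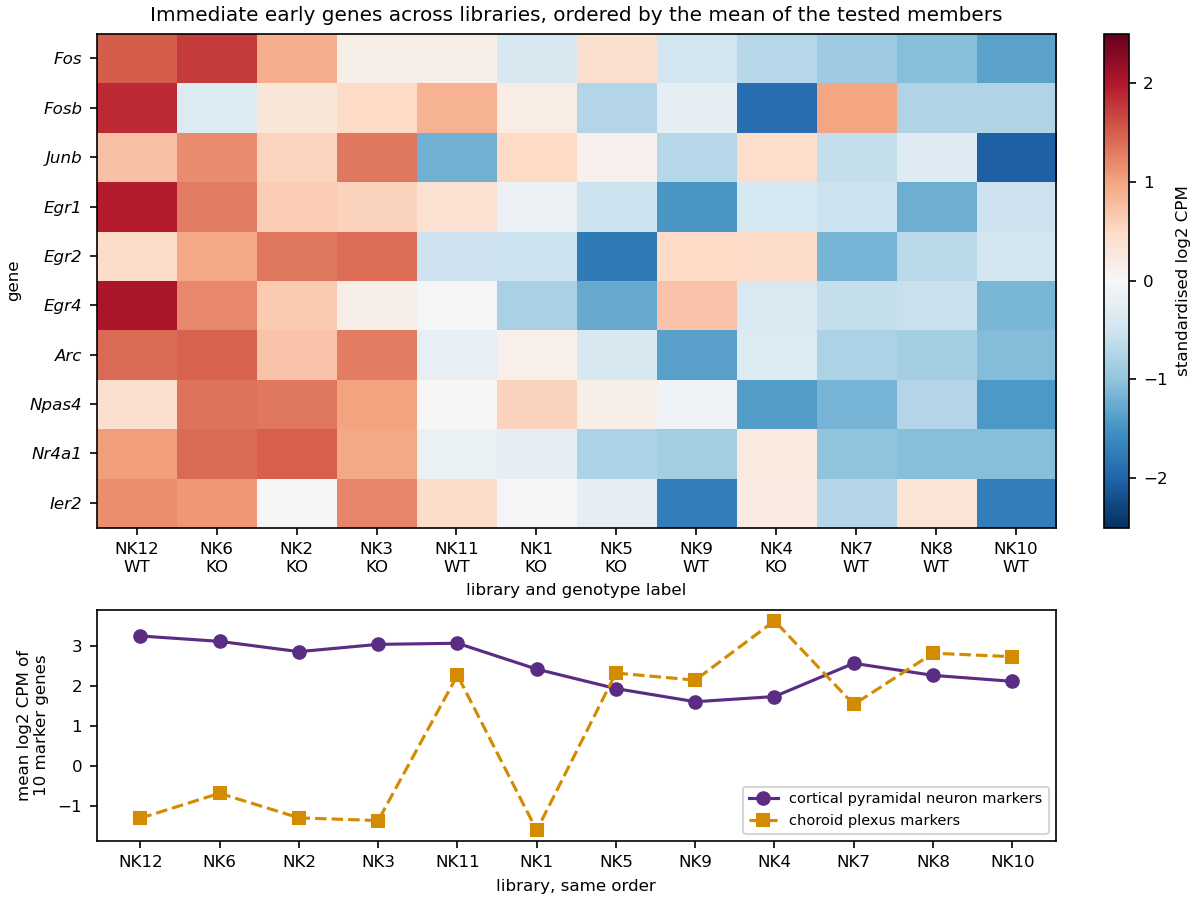
Standardized log2 CPM of the 10 members (rows, color scale) in each library (columns, with its label), ordered by the mean of the 8 tested members. The lower panel plots the mean log2 CPM of 10 cortical pyramidal neuron markers and of 10 choroid plexus markers in the same order; NK12 and NK6 lie at the left, with 3.24 and 3.11 for the cortical markers.

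Other properties of the libraries were set beside the members, 8 measures by 10 members. The choroid plexus markers, a further planned measure, were left out here after their values were seen and are described below. Of the 80 relations, 1 passed an adjusted p under 0.05. Egr1 followed the mean log2 CPM of the 10 cortical pyramidal neuron markers with r = 0.860 and rho = 0.846 (permutation adjusted p = 0.0232 and 0.080), and r was 0.860 without NK4 and NK9. All 10 members had a positive r with the cortical markers, with a median of 0.669 and a range from 0.375 (Egr2) to 0.860. Arc had the second highest value, with r = 0.804 and rho = 0.811 (permutation adjusted p = 0.107 and 0.0904). After the label means were subtracted, Egr1 (r = 0.877, permutation adjusted p = 0.0140) and Arc (r = 0.906, permutation adjusted p = 0.0088) passed. The cortical marker level was highest in NK12 (3.24), NK6 (3.11), NK11 (3.06) and NK3 (3.04) on the mean log2 CPM scale. With the label as the only term, 0 of the 10 markers were called, beside 1.65% of all features. The counts outside ribosomal RNA, a measure of usable depth, came next, with a positive r in 9 of 10 members, a median of 0.536 and a highest value of 0.657 for Ier2, but no member passed. The share of ribosomal RNA gave no member past the threshold either, with r from -0.450 to 0.363. The part of depth in the members' levels was not tested.

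**Figure D4:**
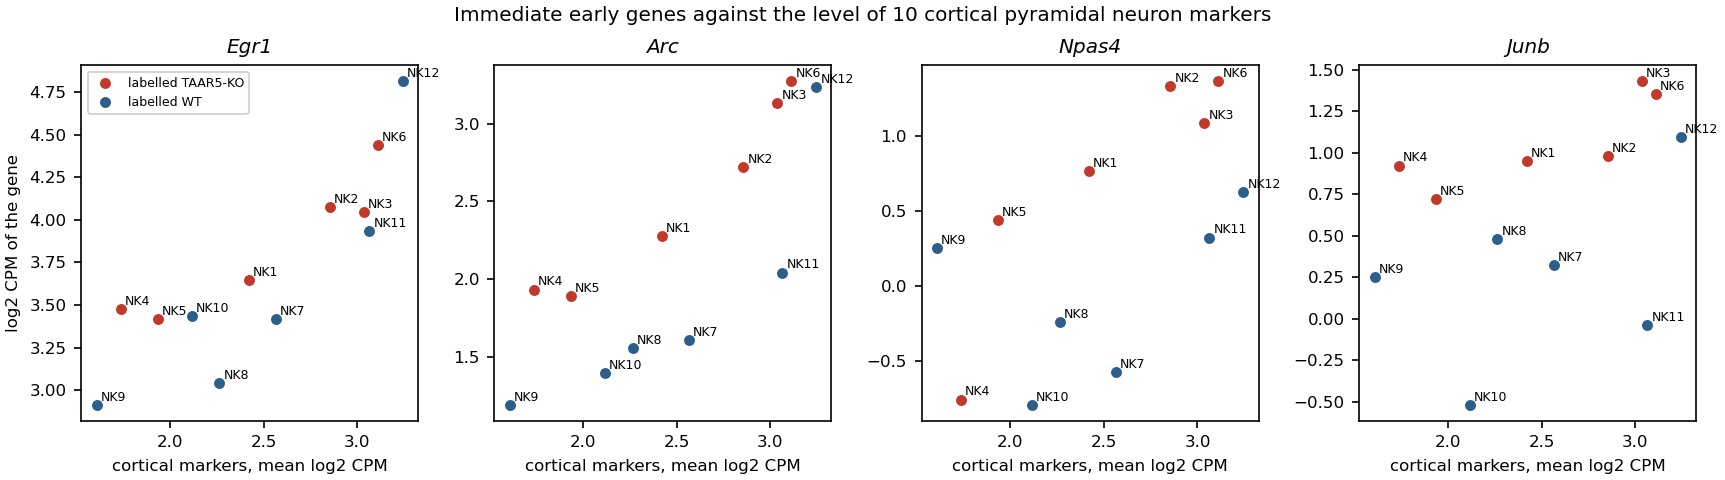
Log2 CPM of Egr1, Arc, Npas4 and Junb (y axes) against the mean log2 CPM of 10 cortical pyramidal neuron markers (x axes) in each library, with the labels TAAR5-KO in red and WT in blue. Pearson's r is 0.860 for Egr1 and 0.804 for Arc; at similar marker levels the red points of Arc lie above the blue ones.

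With the cortical marker level as a covariate next to the label, 4 of 8 members were called higher under the TAAR5-KO label, where 2.31% of all features were called higher and 4.28% in either direction. Npas4 had a log2 fold change of 0.93 ± 0.21 (edgeR adjusted p = 0.0020), Nr4a1 of 0.78 ± 0.21 (edgeR adjusted p = 0.0230), Junb of 0.70 ± 0.20 (edgeR adjusted p = 0.0310) and Arc of 0.64 ± 0.17 (edgeR adjusted p = 0.0137). These differences were close to those without the covariate, while their standard errors were smaller. The remaining members were not called: Fos had 0.63 ± 0.33, Egr1 0.20 ± 0.14, Egr4 -0.076 ± 0.25 and Fosb -0.26 ± 0.18 on the same scale. The quasi-likelihood test with the same covariate, added after the data were seen, called 4 members as well, where 2.19% of all features were called. With the cortical level regressed out of each member, another alternative chosen after the data were seen, the median r of the pairs was 0.444, 37 of 45 pairs were positive and 3 passed. Another covariate of tissue composition, the choroid plexus marker level, gave smaller label differences for these 4 members, with 0 members called.

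**Figure D5:**
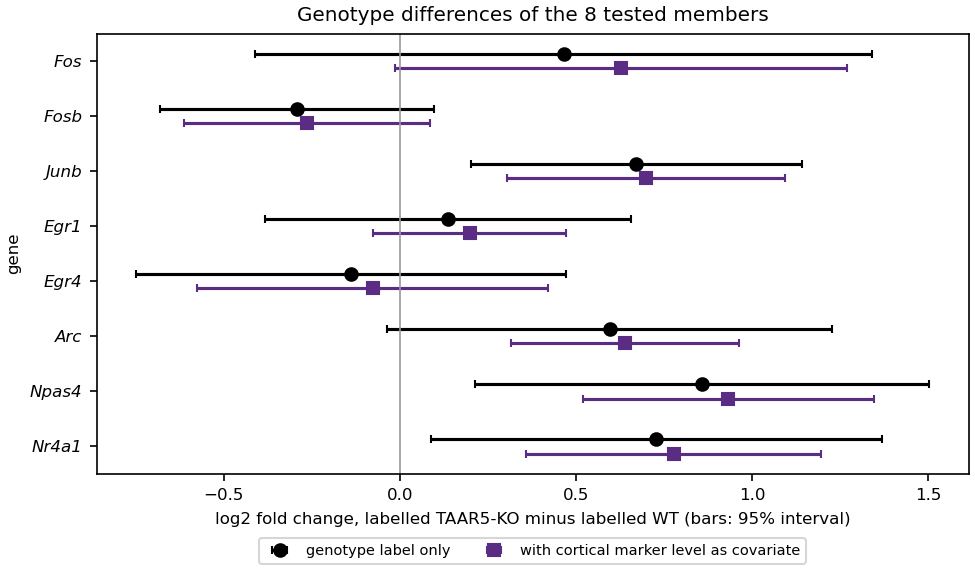
Log2 fold change of the 8 tested members, TAAR5-KO label minus WT label (x axis), with 95% intervals, for the genotype label alone (black circles) and with the cortical marker level as a covariate (purple squares). The intervals of Junb, Arc, Npas4 and Nr4a1 are narrower with the covariate and lie above 0.

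Choroid plexus markers separated the libraries into 2 sets, so no correlation over all 12 is given. In NK1, NK2, NK3, NK6 and NK12 their mean log2 CPM lay between -1.59 and -0.67, and in the other 7 it lay between 1.54 and 3.62. NK12, NK6, NK2 and NK3, which are in the set with low levels, were each among the highest 4 libraries for 8 or 9 of the 10 members, whereas NK1, the fifth library of that set, was among them for 1. Within the 7 libraries with high levels, 0 of 10 members passed with either coefficient. The strongest relation was that of Fosb (r = -0.887, rho = -0.929, exact permutation adjusted p = 0.0873 and 0.0675), and its r was -0.571 without the 2 libraries farthest from the median. With the choroid plexus marker level as a covariate next to the label, chosen after the data were seen, 0 of 8 members were called and 2.06% of all features were. Arc then had a log2 fold change of 0.23, against 0.60 without the covariate. It was 0.49 for Npas4 (0.86 without), 0.42 for Nr4a1 (0.73 without), 0.49 for Junb (0.67 without) and 0.18 for Fos (0.47 without). Egr1 had -0.11, Egr4 -0.35 and Fosb -0.42, all below their values without the covariate. Of the libraries with low choroid levels, 4 carry the TAAR5-KO label and 1 the WT label, so this covariate overlaps with the label. Of the other marker lists, 3 of 10 microglia markers and 2 of 10 astrocyte markers were called lower under the TAAR5-KO label. This was with the label as the only term, where 0.691% of all features were called lower. Npas4 had an r of -0.679 and a rho of -0.650 with the astrocyte markers (permutation adjusted p = 0.207 and 0.346). The summed microglial level was 43.7 to 53.2 CPM under the WT label and 29.9 to 43.6 CPM under the TAAR5-KO label, and the summed astrocytic level was 1183 to 1391 CPM and 1078 to 1269 CPM, with no marker at 0 in every library.

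Other genes of the activity response were taken from 4 lists, in which 82 of 89 genes were tested and 1 was called, beside 1.65% of all features. Of the other rapid response transcription factors, 0 of 17 tested were called and the median log2 fold change was 0.056. Nfil3, a bZIP repressor, had 0.76 ± 0.34 (edgeR adjusted p = 0.307), and Klf10 had 0.59 ± 0.31 (edgeR adjusted p = 0.440). Of the activity-induced effectors, 1 of 25 was called and the median was 0.094. The called gene was Gadd45g, a member of a stress-sensor family linked to DNA demethylation, with 0.496 to 1.30 CPM under the TAAR5-KO label and 0.293 to 0.603 CPM under the WT label. Its log2 fold change was 0.96 ± 0.28 (edgeR adjusted p = 0.0592) on 3 to 30 counts per library, and the groups overlapped. The call was lost with the quasi-likelihood test of edgeR (adjusted p = 0.180), with no filter (edgeR adjusted p = 0.255), with the ribosomal RNA share as covariate (edgeR adjusted p = 0.201), and without any 1 of NK1, NK2, NK5, NK6, NK7, NK8 or NK12 (edgeR adjusted p from 0.102 to 0.170). DESeq2 gave it no adjusted p. The next gene of that list was Rgs2, a GTPase activator for G proteins, with 0.28 ± 0.098 (edgeR adjusted p = 0.157).

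Of the ERK phosphatases and feedback inhibitors, 0 of 11 tested were called and the median log2 fold change was 0.054. Dusp6, which dephosphorylates ERK in the cytoplasm, had 0.35 ± 0.23 (edgeR adjusted p = 0.568), and the nuclear phosphatase Dusp1 had 0.33 ± 0.25 (edgeR adjusted p = 0.655). Of the upstream kinases and factors that act on CREB, SRF and MEF2, 0 of 29 were called and the median was 0.050. Camk4, a nuclear kinase of CREB, had 0.29 ± 0.098 (edgeR adjusted p = 0.129), and the ribosomal S6 kinase gene Rps6ka3 had 0.27 ± 0.10 (edgeR adjusted p = 0.204). With the cortical marker level as covariate, 7 of these 82 genes were called, all higher under the TAAR5-KO label, where 2.31% of all features were called higher, among them Klf10, Rgs2, Dusp6, Camk4 and Rps6ka3.

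The genes most like the members were ranked by the r between their log2 CPM and the mean of the 8 standardized tested members, as a description over 12 libraries. Outside all lists, Adrb1, the beta-1 adrenoceptor gene, came first with r = 0.949 and 1.45 to 2.79 CPM. Ephb6, a kinase-inactive ephrin receptor gene, followed with r = 0.944 and 2.29 to 5.54 CPM. The next 8 were Mmd, Mal2, Unc13a, Pou3f2, Camkk2, Gm20628, Gfra2 and Tsc22d2, with r from 0.902 to 0.886. Unc13a encodes a presynaptic priming factor and Camkk2 the kinase upstream of Camk4. Of the listed genes, Dusp1 had the highest likeness, with r = 0.898, which was rank 10 among all features tested. That rank also counts the 8 members that make up the mean. Dusp6 (r = 0.834), Homer1 (r = 0.803) and Dusp14 (r = 0.802) followed among the listed activity genes, and the lowest value there was that of Scg2 (r = -0.626), all named after their values were seen. All 10 top genes kept an r of 0.857 or more when any 1 library was left out and of 0.791 or more without NK6 and NK12. The genes were picked for a high r in these same libraries, so these values are not independent evidence of likeness.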

How the data were processed

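The values are raw read counts for each gene, as the authors deposited them. Per the labels and the study's methods, total RNA was depleted of ribosomal RNA, made into directional libraries and sequenced as single-end reads. The reads were trimmed with cutadapt 4.1, aligned with STAR 2.7.11b to GRCm39 and counted with featureCounts 2.0.6. The strand setting and the handling of reads with several places are not given in the sources used here. The columns carry a genotype and an NK number, so each was used as a replicate of its label, and p-values measure the spread between these libraries. Another 12 columns of other samples were not used. No pair of libraries with the same label agreed within sampling noise (chi-square divided by its degrees of freedom, 6.78 to 349 over 30 pairs).

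The members, gene lists, markers and tests were chosen with earlier results of these data known. Features with at least 0.5 CPM in at least 3 libraries were fitted in edgeR 4.0.16 (R 4.3.3) with glmFit and glmLRT and Benjamini-Hochberg adjustment over all 13902 features, and were called at an adjusted p under 0.1. The filter, test and threshold are those of the study's methods, which name CPM but no scaling factors, and the TMM factors were chosen here. The outcome was not the same. The study reported fewer features past its filter and fewer called genes, with more of them lower than higher in TAAR5-KO. Here 229 features were called, 133 higher and 96 lower under the TAAR5-KO label. The quasi-likelihood test and DESeq2 1.42.0 were run beside it. The script was tested on simulated counts with known changes. Intervals cover 95%. Correlations used log2 CPM with a prior count of 2 and 100000 permutations. For a count of 0, up to 3 counts were allowed. Named outside the members were every gene of the 4 activity lists past the threshold, the 2 with the smallest p in each list, and the 10 features most like the members. Promoter starts came from GENCODE M39 on GRCm39, which is newer than the annotation used for counting. Alternatives were other scalings, filters, tests and thresholds, covariates, removal of ribosomal RNA features, label-centred values and leaving out each library.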

Additional observations from a re-analysis of the deposited data

Results flagged for a closer look

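In the 6 libraries labelled WT, NK12 lay far above the others for 3 members. Arc was 9.30 CPM in NK12, against 2.19 to 4.02 CPM in the other 5. Nr4a1 was 3.28 CPM, against 1.09 to 1.76 CPM, and Fos was 1.45 CPM, against 0.241 to 0.647 CPM. The gap to the nearest library was 0.742, 0.694 and 0.664 of the range of the group, above Dixon's 95% critical value for 6 samples. Over 20 groups examined, 3 values passed, where chance gives about 1 in 20. All 3 are of the same library and of members that varied together, so they do not count as independent trials against that rate. The flags also hold for CPM only. On the log2 CPM scale of the correlations each gap is a smaller part of the range, below that critical value. There Arc was 3.23 in NK12 against 1.19 to 2.04 in the other 5, and Nr4a1 was 1.76 against 0.24 to 0.89. Fos was 0.63 against -1.57 to -0.43. NK12 also had the highest cortical marker level (mean log2 CPM of 3.24) and the most counts outside ribosomal RNA, and the part of either in these values was not tested.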

How the results depend on the processing

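The number of members called was 0 under the quasi-likelihood test, DESeq2, library size scaling, RLE factors, both other filters, an adjusted p under 0.05, robust dispersions, removal of ribosomal RNA features and the ribosomal RNA or choroid covariate. It was 4 with the cortical marker level as covariate, by the likelihood ratio and by the quasi-likelihood test, and 2 without NK6 and NK12. Leaving out 1 library gave 0 to 3 members, with 3 without NK12 and 1 without NK4. Of the other activity genes, 1 was called. This number was 0 with the quasi-likelihood test, library size scaling, no filter, an adjusted p under 0.05, the ribosomal RNA share as covariate and without NK6 and NK12. It was 2 with DESeq2 and with the choroid covariate, 7 with the cortical covariate and 4 with that covariate in the quasi-likelihood test. The shares of all features called there were 0.46% (of features with a p), 2.06%, 4.28% and 2.19%, respectively. Leaving out 1 library gave 0 to 4, with 4 without NK4, 3 without NK5 and 2 without NK9. The number was 0 without NK1, NK2, NK6, NK7 or NK8. Without NK4, 3.0% of all features were called. The shares without NK5 and without NK9 are not given here, so those counts are not read as results about these genes. Gadd45g was the gene called, its own log2 fold change ran from 0.84 to 1.11 when 1 library was left out, and the genes counted under DESeq2, without NK5 and without NK12 do not include it. The cause of these changes was not tested.

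With library size as the only scaling, values below 0 were found for Fos (-0.048), Egr1 (-0.54), Arc (-0.13), Klf10 (-0.18), Rgs2 (-0.19), Dusp6 (-0.22), Dusp1 (-0.23), Camk4 (-0.26) and Rps6ka3 (-0.31), where the median of all features tested was -0.49. Egr4 was 0.023 with the ribosomal RNA share as covariate, and Egr1 was -0.11 with the choroid covariate. When 1 library was left out, Egr1 ran from -0.0034 to 0.50 and Egr4 from -0.34 to 0.20. Of the 45 pairs of members, 24 passed. This number was 45 with library size scaling, 3 without NK6 and NK12, 3 with the cortical level regressed out, and 11 to 25 when 1 library was left out. Of the 80 relations to library measures, 1 passed. This number was 2 with label-centred values, 64 with library size scaling, 0 with Spearman's rho, 0 without NK6 and NK12, and 0 to 2 when 1 library was left out, with 0 without NK1, NK6, NK9, NK10 or NK12 and 2 without NK11. The covariates in the quasi-likelihood test, the choroid covariate, the regressed pairs and the removal of both NK6 and NK12 were chosen after the data were seen. No paired analysis was possible because the columns carry NK numbers and not the animal numbers of the labels. Depth limits Egr2 and Ier2 most, with at most 22 and 17 counts in any library.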
